A study of Homo sapiens with 12 samples.

Results

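YAP1, its paralogue WWTR1 (the protein TAZ), the DNA-binding partner TEAD1 and 5 of their target genes were followed across 3 human hepatocellular carcinoma (HCC) cell lines treated with an mTOR inhibitor, an SHP2 inhibitor or both. The targets were CTGF, CYR61, AMOTL2, ANKRD1 and LATS2, and all 8 genes were taken by name, with no measured value in the rule, although earlier results of these data were known at the time. All 8 were among the 11548 genes of the table. Hep3B and Huh7 are HCC lines that keep many hepatocyte transcripts, and MHCC97H is an HCC line known for its metastatic behaviour. Each line was labelled wild type and sequenced untreated, with AZD8055, with compound #57, and with AZD8055 and compound #57 together. AZD8055 blocks the mTOR kinase in both of its complexes and was given at 100 nM. Compound #57 is an allosteric inhibitor of the phosphatase SHP2, which relays signals from receptor tyrosine kinases to RAS. In the combination it was given at 5 µM, and its dose alone was not given in the sources used here. Exposure lasted 24 h in MHCC97H but 48 h in the other lines, so that exposure time and MHCC97H cannot be told apart. There was 1 library per line and treatment, 12 in all, so that no condition has a replicate within a line and the 3 cell lines served as the replicates of a treatment.

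YAP1 and TAZ are transcriptional coactivators. When the Hippo kinases MST and LATS are active, LATS phosphorylates both proteins, which keeps them in the cytoplasm or marks them for degradation. When the kinases are inactive, YAP1 and TAZ enter the nucleus, bind TEAD factors and turn on genes such as CTGF, CYR61 and ANKRD1. AMOTL2 and LATS2 are also targets, but their proteins restrain YAP1, which closes a negative feedback loop. In the liver the pathway is known for its control of organ size and for its activation in many HCC. Since much of the control acts on the protein, RNA levels of YAP1 and WWTR1 are not a measure of their activity.

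The libraries held between 10667343 and 15968317 reads. Values are given as scaled reads, meaning reads per 10000000 reads of the library, or as the log2 of scaled reads plus 1, on which all log2-fold changes were computed. Hepatocyte markers were present in Hep3B and Huh7, where the summed level of 8 genes ran from 193823 to 542524 scaled reads in Hep3B and from 325369 to 480624 in Huh7. In MHCC97H the sum ran from 1408 to 3379, and all 8 markers were below every library of the other lines. Of these, TTR had the fewest reads in MHCC97H, at most 3, while HNF4A had between 775 and 2041. Of 4 markers of blood and endothelial cells, PECAM1 alone was in the table, at 4.3 to 55.7 scaled reads in Hep3B and Huh7 and 285 to 541 in MHCC97H.

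The promoters of CTGF and ANKRD1 are shown because both were among the members with the widest changes with AZD8055 and because their sequences hold the letters that TEAD factors are known to prefer. CTGF, now named CCN2, lies at chr6:131948176-131951372 on the minus strand of hg38 (GENCODE 44), and ANKRD1 at chr10:90912096-90921087, also on the minus strand. The 250 bases before the RefSeq gene start were read 5′ to 3′ on the gene's strand (GRCh38.p14), at chr6:131951373-131951622 for CTGF and chr10:90921088-90921337 for ANKRD1. Capitals mark GGAATG, the letters searched for TEAD.
CTGF promoter: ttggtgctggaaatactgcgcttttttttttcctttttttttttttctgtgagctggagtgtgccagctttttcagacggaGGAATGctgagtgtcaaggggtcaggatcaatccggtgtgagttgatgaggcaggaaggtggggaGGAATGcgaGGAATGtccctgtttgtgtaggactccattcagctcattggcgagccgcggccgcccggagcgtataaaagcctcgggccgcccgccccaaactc
ANKRD1 promoter: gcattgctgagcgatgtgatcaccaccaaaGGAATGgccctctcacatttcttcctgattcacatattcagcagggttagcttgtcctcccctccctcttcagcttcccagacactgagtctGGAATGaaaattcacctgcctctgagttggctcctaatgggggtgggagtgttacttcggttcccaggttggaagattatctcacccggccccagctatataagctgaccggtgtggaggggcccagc
CTGF held the letters at positions -169, -104 and -95 from its start, and ANKRD1 at -220 and -128, all on the forward strand. ANKRD1 also held TGANTCA, the letters searched for AP-1, at -195, and no window of another member did. Both motifs were searched on both strands, and their matches do not overlap here. Of 35116 RefSeq windows of this length, 11.9% held GGAATG and 6.57% held TGANTCA. Promoter windows were on hand for 6 of the 8 members, all but CYR61 and TEAD1. YAP1 held GGAATG at -162 and AMOTL2 held it on the reverse strand at -69 in 1 of its windows, while those of WWTR1 and LATS2 did not hold these letters. A match describes the sequence and is no evidence of binding.

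Compared as RPKM, which divides reads by exon length and by the depth of the library, the untreated lines ranked the members differently. In untreated Hep3B, CTGF (48.7 RPKM), ANKRD1 (42.4) and YAP1 (37.7) led, followed at a distance by AMOTL2 (9.38), TEAD1 (8.73), CYR61 (8.44), LATS2 (5.06) and WWTR1 (4.11). Untreated Huh7 kept this order, from 72.2 RPKM for CTGF through 49.9 for ANKRD1 and 39.96 for YAP1 to 3.89 for WWTR1. In untreated MHCC97H, YAP1 led with 39.5 RPKM, ahead of CTGF (22.4), TEAD1 (18.9) and WWTR1 (15.3), and ANKRD1 was at 2.79 and LATS2 at 1.34. YAP1 itself thus differed little between the untreated lines, while ANKRD1, LATS2, CTGF and WWTR1 differed more widely. CYR61 (5.09 RPKM in MHCC97H and 10.7 in Huh7) and AMOTL2 (10.3 and 19.0) differed less than those genes. These levels rest on 1 library each and on the union of all annotated exons as the length.

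**Figure D1:**
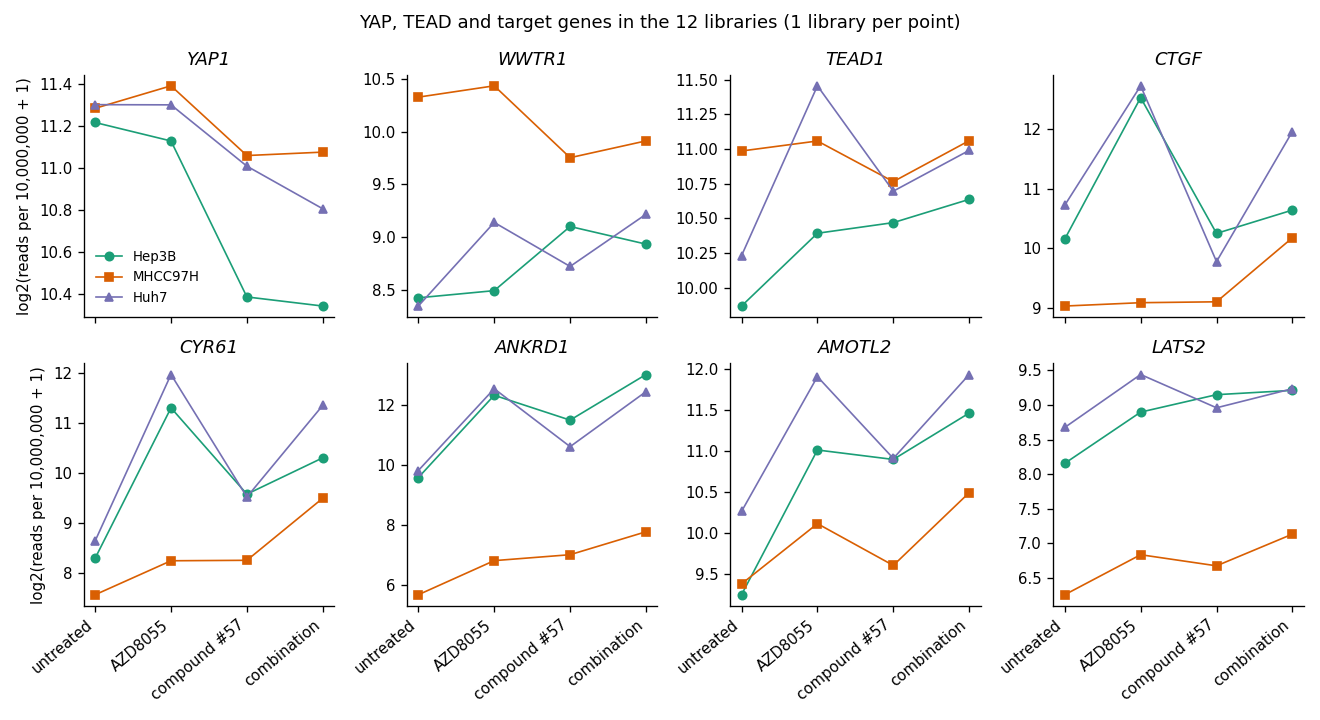
Level of each of the 8 members in the 12 libraries, as log2 of scaled reads plus 1 (vertical axis, with its own range for each gene) by treatment (horizontal axis). Each point is 1 library, and lines join the libraries of a cell line for the eye only. CYR61 and ANKRD1 lie higher with AZD8055 than in untreated cells in all 3 lines, whereas YAP1 lies lower with compound #57 and with the combination.

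The first comparison asked what mTOR inhibition alone did to the members. With AZD8055 the RNA of CYR61, ANKRD1 and AMOTL2 rose, and that of YAP1 did not move by more than 1.08-fold in either direction in any line. CYR61 showed the widest change, 8.03-fold in Hep3B and 10.02-fold in Huh7. The changes were smaller in MHCC97H, where ANKRD1 alone reached 2-fold. Members at least 2-fold higher numbered 4 of 8 in Hep3B, against 3.81% of all genes, 5 of 8 in Huh7, against 5.89%, and 1 of 8 in MHCC97H, against 7.14%. None was at least 2-fold lower.

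CYR61 (chr1:85580761-85584589), a secreted matricellular protein now named CCN1, had 312 scaled reads in untreated Hep3B, 188 in untreated MHCC97H and 397 in untreated Huh7. With AZD8055 it had 2513, 302 and 3987 in the same order. The treated library was above the untreated one in every line, but the groups overlapped, since treated MHCC97H lay below untreated Hep3B and Huh7. On the log2 scale CYR61 changed by 3.00 (2.85 to 3.18) in Hep3B, by 0.68 (0.45 to 0.91) in MHCC97H and by 3.32 (3.21 to 3.45) in Huh7, with 95% intervals in brackets. These are Clopper-Pearson intervals of the ratio of reads. They cover only the error of counting and describe a pair of libraries rather than a pair of conditions. The change lay above that of 99.91% of all genes in Hep3B. This share was 84.9% in MHCC97H and 99.84% in Huh7. In these bulk samples, more cells with this RNA and more of it per cell cannot be told apart.

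ANKRD1, an ankyrin repeat protein of the nucleus that is widely used as a readout of YAP1, went from 759 to 5080 scaled reads in Hep3B, from 49.9 to 111 in MHCC97H and from 894 to 5906 in Huh7. The folds of Hep3B and Huh7 were near each other, 6.68 and 6.60, and that of MHCC97H was 2.20, which rests on 158 against 65 reads. CTGF, a secreted matricellular protein of the same family as CYR61, went from 1138 to 5885 in Hep3B and from 1687 to 6751 in Huh7, which is 5.17-fold and 4-fold. In MHCC97H it stayed at 523 and 544 scaled reads, and the interval of its log2-fold change, -0.09 to 0.21, includes 0. The test of this difference between the lines, given with the drug effects per line, did not pass.

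The feedback genes had smaller folds than CYR61 and ANKRD1 in Hep3B and Huh7. AMOTL2 (chr3:134355347-134375479), an angiomotin-family scaffold that holds YAP1 at cell junctions, went from 607 to 2063 scaled reads in Hep3B, from 666 to 1108 in MHCC97H and from 1228 to 3832 in Huh7. LATS2 (chr13:20973036-21061586), a kinase that phosphorylates YAP1, went from 284 to 476, from 75.2 to 113 and from 408 to 694 in the same lines. Its folds, 1.67, 1.49 and 1.70, were close to each other in all 3 lines.

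Among the regulators, YAP1 (chr11:102110447-102233424) had 2377, 2491 and 2522 scaled reads in untreated Hep3B, MHCC97H and Huh7 and 2236, 2684 and 2520 with AZD8055. The untreated and treated ranges of YAP1 overlapped. TEAD1 (chr11:12674421-12944737), the factor that carries YAP1 to DNA, went from 934 to 1344 in Hep3B, from 2028 to 2132 in MHCC97H and from 1201 to 2809 in Huh7. WWTR1 (chr3:149517235-149736714) went from 343 to 360, from 1282 to 1381 and from 325 to 563. The widest folds of TEAD1 (2.34) and WWTR1 (1.73) were thus in Huh7.

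**Figure D2:**
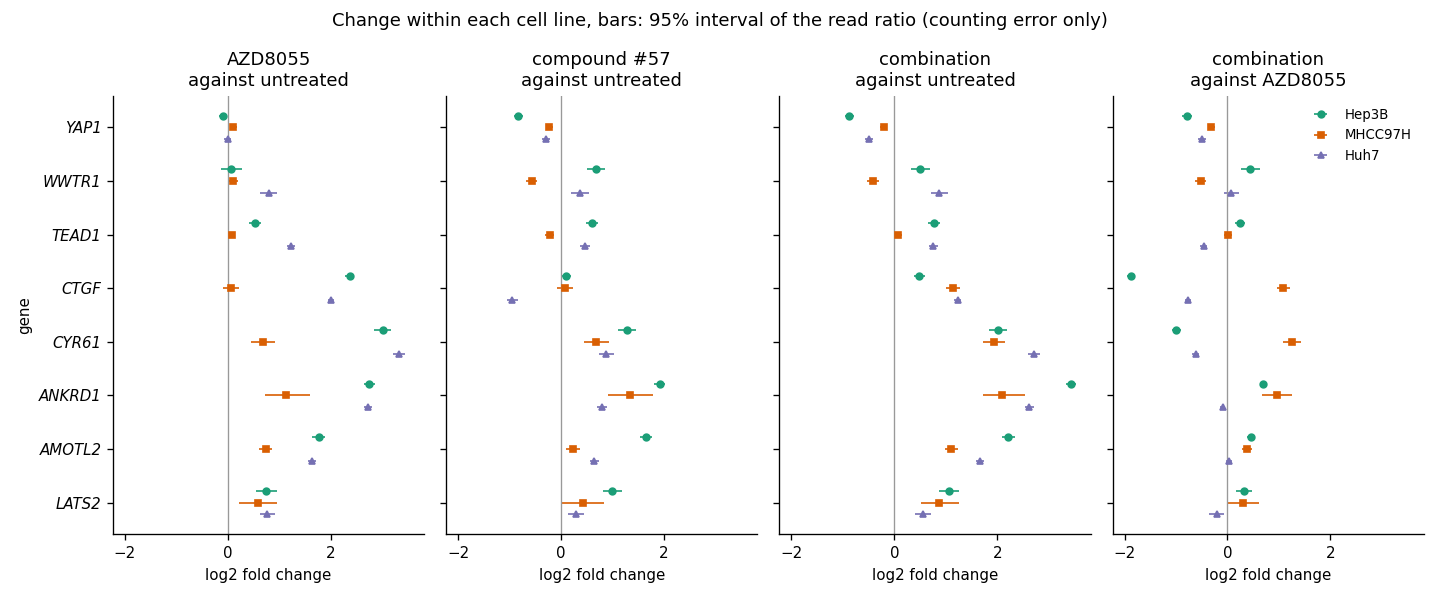
Log2-fold change of each member (horizontal axis) within each cell line, with a panel for each treatment contrast and 95% Clopper-Pearson intervals that cover the error of counting only. With AZD8055, CYR61 stands at 3.00 in Hep3B and 3.32 in Huh7 but at 0.68 in MHCC97H.

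Across the lines, limma was fitted to all 12 libraries with a term for treatment and another for cell line, and a gene was called where its p adjusted over all 11548 genes was under 0.05. With AZD8055, 3 of 8 members were called higher, against 2.21% of all genes, and none lower. The log2-fold change was 2.34 ± 0.45 (SE of the fit) for CYR61 (adjusted p = 0.0382), 2.20 ± 0.35 for ANKRD1 (adjusted p = 0.029) and 1.38 ± 0.24 for AMOTL2 (adjusted p = 0.0321). This SE comes from all 12 libraries and is the same in every treatment contrast of a gene. It is not the spread of the AZD8055 change over the lines, which for CYR61 ran from 0.68 to 3.32. LATS2 (0.70, adjusted p = 0.0518), TEAD1 (0.61, adjusted p = 0.099) and CTGF (1.48, 95% interval 0.33 to 2.62, adjusted p = 0.107) did not pass. WWTR1 (0.32, adjusted p = 0.452) and YAP1 (0.01, 95% interval -0.31 to 0.32, adjusted p = 0.982) did not pass either. The members' median was 1.04, beside 0.03 over all genes tested. All 3 calls were lost without Hep3B (CYR61 2.0, ANKRD1 1.93 and AMOTL2 1.19, lowest adjusted p = 0.109), without Huh7 (1.84, 1.94 and 1.25, adjusted p = 0.366) and when only the untreated and AZD8055 libraries were fitted (lowest adjusted p = 0.0641). Without MHCC97H, CTGF was called as well, at 2.18 (adjusted p = 0.0471). The share of all genes called in these smaller fits was not taken.

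Markers of mesenchymal cells also rose with AZD8055, by amounts that differed between markers and lines. With AZD8055, 6 of 6 such markers in the table were higher than in untreated cells in each line. Their summed level went from 25104 to 40173 scaled reads in Hep3B, from 82944 to 171630 in MHCC97H and from 65467 to 141440 in Huh7. The fold of the sum was smallest in Hep3B, where 4 of 8 members were at least 2-fold higher, against 1 of 8 in MHCC97H. Fibronectin (FN1), a matrix protein, made up most of each sum, and the matrix gene SPARC had as few as 3 reads in Hep3B and 13 in MHCC97H. VIM, an intermediate filament, went from 4964 to 10196 in Hep3B and from 3244 to 7107 in Huh7, with 69.1 and 81.4 in MHCC97H. CDH2 went from 568 to 1076 in Hep3B, from 1188 to 1543 in MHCC97H and from 1204 to 3989 in Huh7. In the same order, ZEB1 went from 119 to 155, from 391 to 445 and from 307 to 368. COL1A1 went from 28.1 to 35.1, from 9.98 to 12.6 and from 92.1 to 888, with 13 and 18 reads in MHCC97H. With compound #57 the sum was 28530, 84774 and 79225 in Hep3B, MHCC97H and Huh7, and with the combination 62241, 133508 and 103616, with 5 of 6 markers higher in each line. The sum of the 8 hepatocyte markers with AZD8055 was 193823 against 327074 in Hep3B, 325369 against 404963 in Huh7 and 1408 against 1410 in MHCC97H. The part of either marker list in the changes of the members was not tested.

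**Figure D3:**
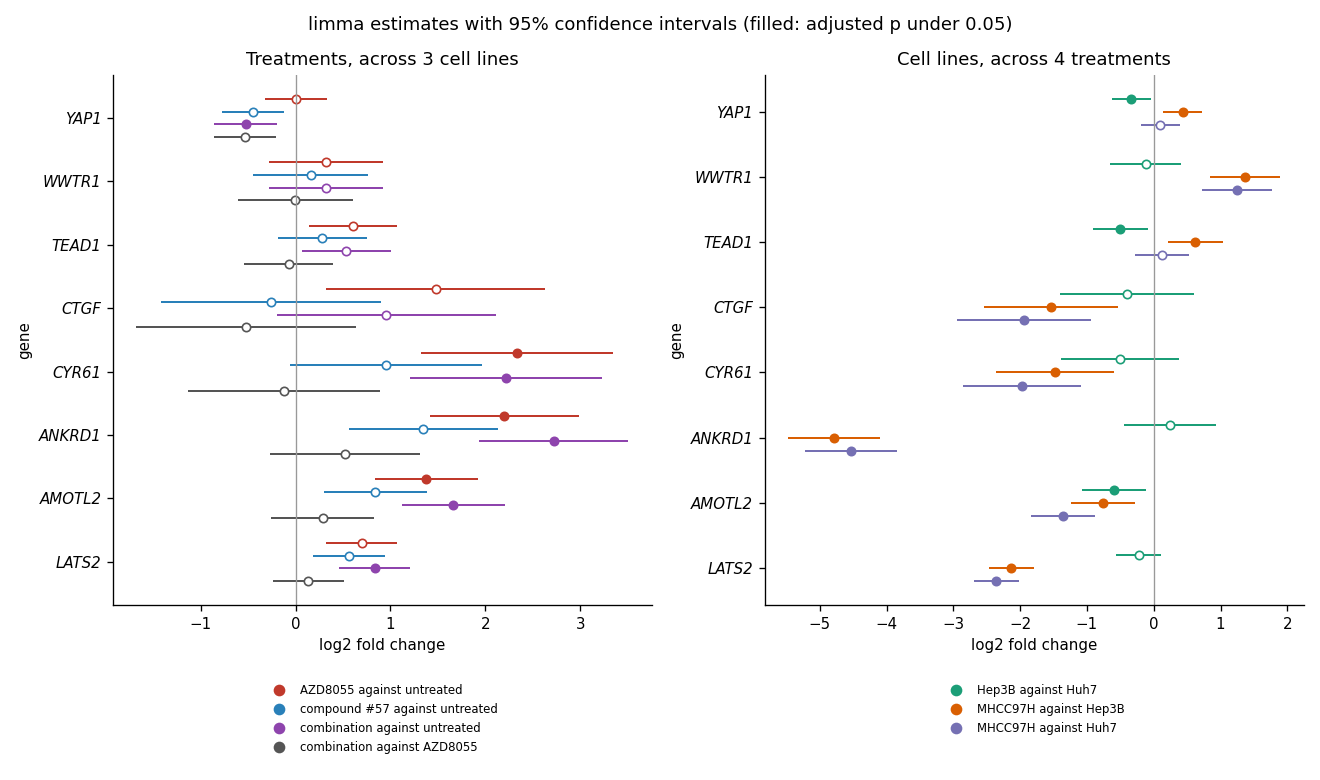
Log2-fold change of each member from limma (horizontal axis) with its 95% interval, for the treatment contrasts across 3 lines on the left and the contrasts between lines across 4 treatments on the right. Filled points mark an adjusted p under 0.05, which on the left are 3 of 8 members with AZD8055, 0 with compound #57, 5 with the combination against untreated cells and 0 against AZD8055.

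SHP2 inhibition alone was compared with the same untreated libraries. With compound #57, YAP1 was lower in each line and ANKRD1, CYR61, AMOTL2 and LATS2 were higher in each line, but no member passed the test across lines. YAP1 had 1335 scaled reads with compound #57 against 2377 untreated in Hep3B, 2131 against 2491 in MHCC97H and 2058 against 2522 in Huh7. For YAP1 the 3 treated libraries lay below the 3 untreated ones without overlap, but the share of all genes that separate so was not counted. The intervals of the fold of YAP1 in reads excluded no change in each line (log2 -0.92 to -0.75, -0.30 to -0.15 and -0.36 to -0.22).

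ANKRD1 had 2861 scaled reads with compound #57 in Hep3B, 127 in MHCC97H and 1551 in Huh7, which is 3.77-fold, 2.52-fold and 1.74-fold of untreated cells. AMOTL2 had 1905, 778 and 1921, or 3.13-fold, 1.17-fold and 1.56-fold. CYR61 had 760, 304 and 731, or 2.43-fold, 1.61-fold and 1.84-fold. LATS2 had 567, 101 and 497, which is 1.99-fold, 1.34-fold and 1.22-fold. The widest changes of AMOTL2 and LATS2 were thus in Hep3B, and at least 2-fold higher were 3 of 8 members in Hep3B (8.96% of all genes), 1 in MHCC97H (3.12%) and 0 in Huh7 (4.43%).

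CTGF did not follow CYR61. It stood at 1216 scaled reads in Hep3B and 549 in MHCC97H, both within 1.07-fold of untreated cells with intervals that include 0, and at 877 against 1687 in Huh7, or 0.520-fold. CYR61 was 1.84-fold higher in that same pair of libraries. WWTR1 was 1.60-fold higher in Hep3B (548) and 1.30-fold higher in Huh7 (422), but 0.672-fold in MHCC97H (862). TEAD1 had the same pattern, with 1417 and 1659 scaled reads in Hep3B and Huh7 (1.52-fold and 1.38-fold) and 1740 in MHCC97H (0.858-fold). The values of WWTR1 and TEAD1 thus went in opposite directions in MHCC97H and the other lines. These pairs were not tested on their own. In the drug effects per line, which average over pairs without and with AZD8055, the difference passed for WWTR1 but not for TEAD1.

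By limma, 0 of 8 members were called with compound #57, where 1 gene in all, 0.00866% of those tested, was called at all and 2501 had an unadjusted p under 0.05. Of the members, 4 had an unadjusted p under 0.05: YAP1 (-0.45 ± 0.14, adjusted p = 0.138), ANKRD1 (1.35, adjusted p = 0.104), AMOTL2 (0.84, adjusted p = 0.117) and LATS2 (0.57, adjusted p = 0.119). CYR61 stood at 0.95 (adjusted p = 0.251), TEAD1 at 0.28, WWTR1 at 0.16 and CTGF at -0.26. The members' median was 0.42, beside 0.05 over all genes. Without MHCC97H, 3 members were called, ANKRD1 at 1.35, AMOTL2 at 1.15 and CYR61 at 1.08 (adjusted p between 0.0389 and 0.0463). That fit also called 4 of 31 other Hippo pathway genes and 1 of 14 other YAP targets, the lists given below. Its share of all genes called was not taken, so the count is not a result about the members.

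The combination was set against untreated cells to see the members under both inhibitors. ANKRD1, CYR61, AMOTL2 and LATS2 rose and YAP1 fell. ANKRD1 reached the highest level of any member in any library, 8202 scaled reads in Hep3B, 10.8-fold of untreated cells. Unlike with AZD8055 alone, 4 of 8 members were at least 2-fold higher in each line, against 11.6% of all genes in Hep3B, 11.4% in MHCC97H and 12% in Huh7. The single-drug and combination contrasts share the untreated libraries.

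ANKRD1 stood at 217 scaled reads in MHCC97H and 5523 in Huh7, which is 4.28-fold and 6.18-fold of untreated cells. CYR61 had 1258, 719 and 2602 in Hep3B, MHCC97H and Huh7, or 4.02-fold, 3.81-fold and 6.54-fold. AMOTL2 had 2818, 1439 and 3902, or 4.63-fold, 2.16-fold and 3.18-fold. For AMOTL2 and CYR61 the lowest combination library lay above the highest untreated one, so that the groups did not overlap. How many of all genes separate in this way was not counted. The ANKRD1 library of MHCC97H lay below untreated Hep3B and Huh7. LATS2 had 592, 139 and 602, or 2.08-fold, 1.84-fold and 1.48-fold.

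CTGF stood at 1595 in Hep3B (1.40-fold), 1156 in MHCC97H (2.21-fold) and 3972 in Huh7 (2.35-fold), and its intervals excluded no change in each line for counting error. YAP1 stood at 1296, 2155 and 1787 scaled reads, or 0.545-fold, 0.865-fold and 0.709-fold, all below the lowest untreated library. The share of all genes that separate so was not counted here either. TEAD1 had 1592, 2135 and 2034 (1.70-fold, 1.05-fold and 1.69-fold). WWTR1 had 488 in Hep3B and 594 in Huh7 (1.42-fold and 1.83-fold) but 962 in MHCC97H (0.751-fold). MHCC97H was thus the line in which WWTR1 was lower under the combination, as it was with compound #57 alone.

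By limma, 4 of 8 members were called higher, against 20.9% of all genes, and 1 lower, against 15.1%. The log2-fold change was 2.72 ± 0.35 for ANKRD1 (adjusted p = 0.00211), 2.21 ± 0.45 for CYR61 (adjusted p = 0.00669), 1.66 ± 0.24 for AMOTL2 (adjusted p = 0.00278) and 0.83 ± 0.16 for LATS2 (adjusted p = 0.00616). YAP1 fell by 0.53 ± 0.14 (adjusted p = 0.0189). TEAD1 (0.53, adjusted p = 0.0653), CTGF (0.95, adjusted p = 0.165) and WWTR1 (0.32, adjusted p = 0.362) did not pass. The members' median was 0.89, beside 0.09 over all genes. Without Huh7 none of the 5 calls was kept (ANKRD1 2.76, adjusted p = 0.0555), and the call of YAP1 was also lost without Hep3B (-0.35, adjusted p = 0.121) and when only the libraries compared were fitted (adjusted p = 0.0833). CTGF passed when only the libraries compared were fitted (adjusted p = 0.0337). For these smaller fits, too, the share of all genes called was not taken.

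The last treatment contrast set the combination against AZD8055 alone, which isolates what the SHP2 inhibitor added. YAP1 was lower with the combination in each line, and CTGF and CYR61 were lower in Hep3B and Huh7 but higher in MHCC97H. CTGF stood at 1595 against 5885 scaled reads in Hep3B (0.271-fold) and at 3972 against 6751 in Huh7 (0.588-fold), but at 1156 against 544 in MHCC97H (2.13-fold). CYR61 stood at 0.501-fold, 0.653-fold and 2.38-fold of AZD8055 in the same lines. In MHCC97H, CTGF was thus above its untreated level by more than counting error under the combination and under neither drug alone. The difference in direction between the lines was not tested for this contrast.

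ANKRD1 was higher than with AZD8055 alone in Hep3B (1.61-fold) and MHCC97H (1.95-fold) and stood at 0.935-fold in Huh7. AMOTL2 was at 1.37-fold, 1.30-fold and 1.02-fold and LATS2 at 1.24-fold, 1.23-fold and 0.867-fold in Hep3B, MHCC97H and Huh7. The feedback genes therefore stayed within 1.37-fold of their AZD8055 level. By limma, 0 of 8 members passed, as did 0% of all genes, where 1673 had an unadjusted p under 0.05 and the smallest adjusted p was 0.121. YAP1 came nearest among the members, at -0.53 (95% interval -0.85 to -0.22, adjusted p = 0.205). CTGF stood at -0.52, CYR61 at -0.12, AMOTL2 at 0.28, LATS2 at 0.14 and ANKRD1 at 0.52. With voom on whole reads, the count of members was also 0.

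Between the lines, averaged over the 4 treatments, the regulators and the targets split in MHCC97H. On this average WWTR1 was higher in MHCC97H than in both other lines, and CTGF, CYR61, AMOTL2, ANKRD1 and LATS2 were lower. In the untreated libraries alone, CTGF, CYR61, ANKRD1 and LATS2 were also lower in MHCC97H than in both. Untreated AMOTL2 was not lower than in Hep3B, at 666 scaled reads in MHCC97H, 607 in Hep3B and 1228 in Huh7. WWTR1 had between 982 and 1969 reads in the MHCC97H libraries, 366 to 857 in Hep3B and 519 to 691 in Huh7. ANKRD1 had 65 to 268 reads in MHCC97H, where every library lay below the lowest of Hep3B (810 reads) and of Huh7 (1427 reads). LATS2 had 98 to 172 reads in MHCC97H, also without overlap with the other lines. How many of all genes separate the lines in this way was not counted.

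By limma, all 8 members differed between MHCC97H and Hep3B, 3 higher (29.2% of all genes) and 5 lower (38.6%). This is to be read against a large share of all genes that differed. The replicates of a line here were its differently treated libraries, so that the p-values do not measure a spread between independent cultures. WWTR1 was higher by 1.37 on the log2 scale (adjusted p = 0.000447), TEAD1 by 0.63 (adjusted p = 0.00993) and YAP1 by 0.43 (adjusted p = 0.01). ANKRD1 stood at -4.78 (adjusted p = 4.36e-07), LATS2 at -2.13 (adjusted p = 6.6e-07), CTGF at -1.54, CYR61 at -1.48 and AMOTL2 at -0.76. Against Huh7, MHCC97H had 1 member higher (33.8%), WWTR1 at 1.25, and the same 5 targets lower (36.4%), from AMOTL2 at -1.35 to ANKRD1 at -4.53, while YAP1 (0.10, adjusted p = 0.493) and TEAD1 (0.12, adjusted p = 0.549) did not pass. Hep3B and Huh7 differed in 3 of 8 members (55.1% of all genes), all lower in Hep3B (24.5%), namely AMOTL2 at -0.60, TEAD1 at -0.50 and YAP1 at -0.34. The calls between Hep3B and Huh7 were lost without the AZD8055 libraries and without the combination libraries (0 of 8 called in both), 1 was called without compound #57, and 2 were called without the untreated libraries. The exposure time of MHCC97H cannot be told apart from the line, and the hepatocyte markers, at 1408 to 3379 scaled reads in sum, moved with it. Their part in these differences was not tested.

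Whether the response to a drug differed between the lines was tested with a level and an effect of each drug for every line. Each effect is the mean of the pair of libraries without and the pair with the other drug. The effect of AZD8055 in MHCC97H passed the test of a difference from the mean of the other lines in no member (0 of 8, 9.53% of all genes). ANKRD1 came nearest, at -1.25 (unadjusted p = 0.00756, adjusted p = 0.0641), ahead of CTGF (-1.17, adjusted p = 0.166) and CYR61 (-1.26, adjusted p = 0.219). Between Hep3B and Huh7 0 members passed (0.0693%), with WWTR1 at -0.69 (unadjusted p = 0.00372, adjusted p = 0.274). A mean over both pairs does not decide whether the smaller changes with AZD8055 alone in MHCC97H differ from the other lines.

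The effect of compound #57 on WWTR1 differed, with MHCC97H lower than the mean of the other lines by 0.94 ± 0.15 on the log2 scale (95% interval -1.28 to -0.60, adjusted p = 0.0159). WWTR1 was the 1 of 8 members called, against 5.17% of all genes in both directions and 2.42% lower. It was lower in both MHCC97H pairs, 862 against 1282 scaled reads without AZD8055 and 962 against 1381 with it, and higher in 4 of 4 pairs of the other lines. The Huh7 pair with AZD8055 differed little, at 594 against 563, and its log2 interval (-0.08 to 0.23) includes 0. CTGF (1.45, adjusted p = 0.135), YAP1 (0.33, adjusted p = 0.193) and TEAD1 (-0.32, unadjusted p = 0.237, adjusted p = 0.504) did not pass. Between Hep3B and Huh7, 0 members passed for compound #57 (0.927%).

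**Figure D4:**
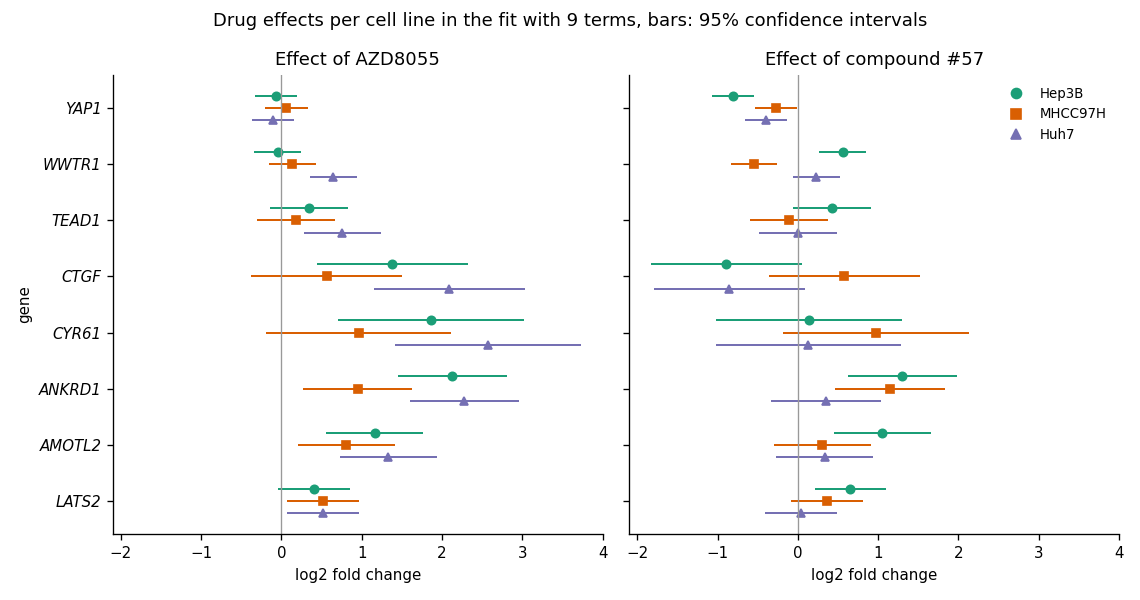
Effect of each drug on each member in each cell line, from the limma fit with a level and both drug effects per line, as log2-fold change (horizontal axis) with its 95% interval. For WWTR1 the effect of compound #57 lies at -0.55 in MHCC97H, 0.56 in Hep3B and 0.23 in Huh7, where the interval includes 0.

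Beyond the members, 2 wider lists were set beside the share of all genes called with AZD8055. Of 31 other Hippo pathway genes in the table (33 listed), 0 were called, and of 14 other YAP target genes (17 listed) 2 were called higher, against 2.21% of all genes called higher. PTPN14 stands in both lists. Their medians were 0.30 and 1.01, beside 0.03 over all genes. CRIM1, a transmembrane protein that binds growth factors of the BMP family, rose by 1.79 (adjusted p = 0.0335), and was 3.97-fold, 1.97-fold and 5.32-fold of untreated cells in Hep3B, MHCC97H and Huh7. ARHGEF17, a guanine nucleotide exchange factor, rose by 1.32 (adjusted p = 0.0304), with only 2 to 10 reads in the MHCC97H libraries. Of the 31 Hippo genes, 11 had an unadjusted p under 0.05, as did 27.4% of all genes.

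With compound #57, 0 of 31 pathway genes and 0 of 14 targets were called, with medians of 0.19 and 0.31. NT5E, the ectonucleotidase CD73, was at least 2-fold lower in all 3 lines, at 0.048-fold in Hep3B, 0.351-fold in MHCC97H and 0.311-fold in Huh7 (-2.53, adjusted p = 0.093). Under the combination it fell by 2.82 (adjusted p = 0.0081), to 66, 387 and 136 reads from 897, 1250 and 1389. It was also at least 2-fold lower in each line against AZD8055 (-2.43, adjusted p = 0.188), as was AXL, a receptor tyrosine kinase (-1.79, adjusted p = 0.266). For AXL this rests on 19 against 40 reads in Hep3B and 6 against 57 in Huh7, beside 447 against 1330 in MHCC97H, and with 10 added its log2-fold change in Hep3B was -0.75, under 2-fold. NT5E, listed as a target, was thus called lower under the combination, where CYR61 and ANKRD1 were called higher.

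Under the combination 10 of 31 pathway genes were called higher and 3 lower, and 7 of 14 targets higher and 1 lower (medians 0.29 and 0.84, beside 0.09 over all genes). Of all genes, 20.9% were called higher and 15.1% lower. The scaffold genes AMOTL1 (0.96) and WWC1, which encodes KIBRA (1.49), rose, as did AJUBA, whose LIM protein holds back LATS kinases (1.29), and TEAD3, a paralogue of TEAD1 (0.61). NF2, whose product merlin activates the Hippo kinases, fell by 0.75 (adjusted p = 0.01). Of the targets, MYOF, a membrane repair protein, rose by 2.15, CCDC80, a secreted matrix protein, by 2.10, CRIM1 by 1.59 and ARHGEF17 by 1.36 (adjusted p between 0.00335 and 0.00866 for these 4). AMOTL1 had 6 to 11 reads and ARHGEF17 2 to 10 in MHCC97H. Against AZD8055 alone, 0 of 31 and 0 of 14 were called.

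Between the lines, 15 of 31 pathway genes and 4 of 14 targets differed for Hep3B against Huh7, 25 and 12 for MHCC97H against Hep3B, and 24 and 8 for MHCC97H against Huh7. These counts stand beside 55.1%, 67.8% and 70.2% of all genes that differed in the same contrasts. Several angiomotin and cadherin genes had few reads in MHCC97H, with 6 to 11 reads for AMOTL1, 0 to 3 for AMOT, 0 to 2 for FAT4 and 0 to 2 for DCHS1 per library. ARHGEF17, which had the smallest p of the other targets in both MHCC97H contrasts (adjusted p = 2.34e-09 against Hep3B and 9.18e-10 against Huh7), was lower there, with 2 to 10 reads. AXL was higher in MHCC97H, with 125 to 1330 reads, than in Hep3B with 2 to 40 and Huh7 with 0 to 57. MYOF was higher in MHCC97H than in Hep3B, by 4.32 on the log2 scale, as were ASAP1, an ARF GTPase activator (0.97), and F3, tissue factor (2.17). TEAD3 and the kinase MAP4K2 were lower (-1.60 and -1.66). Against Huh7, MHCC97H was also higher in the atypical cadherin FAT1 (2.79), MYOF (3.62), ASAP1 (1.34) and DOCK5, a RAC exchange factor (1.12). Hep3B exceeded Huh7 in MOB1B, a LATS coactivator (1.25), MAP4K2 (1.25), PTPN14 (0.63) and ASAP1 (0.37), and was below it in the paralogue MOB1A (-0.89), the LIM gene LIMD1 (-1.01), NF2 (-0.99), F3 (-1.92) and ARHGEF17 (-0.91). MHCC97H thus held less RNA of CTGF, ANKRD1 and ARHGEF17 and more of MYOF and AXL, which are all listed as targets of the same factors.

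After the mean of each line was subtracted, the members were compared with each other over the 12 libraries. AMOTL2 went with ANKRD1 (r = 0.963) and LATS2 (r = 0.943), ANKRD1 with CYR61 (r = 0.923), and CTGF with CYR61 (r = 0.862) but less with LATS2 (r = 0.484). YAP1 did not go with its targets, with r between -0.584 and 0.195 to the other members, while WWTR1 and TEAD1 went together (r = 0.764). Of all genes, those most like CYR61 were C22orf29 (r = 0.967), RBPMS (0.960) and GRK6 (0.953), and those most like ANKRD1 were SLC35A5 (0.984), GADD45B (0.979) and BRPF3 (0.977). AMOTL2 was most like COL18A1 (0.982), KLHL5 (0.980) and GADD45B (0.979), CTGF like POFUT2 (0.938), BMPR1B (0.934) and TUSC3 (0.919), and LATS2 like CLDN1 (0.981), LEPROT (0.973) and C1orf198 (0.966). YAP1 was most like HMGA2 (0.982), PIH1D1 (0.969) and AC007246.3 (0.965), WWTR1 like TACC2 (0.950), PPP3CC (0.940) and ITPR3 (0.925), and TEAD1 like ARHGDIB (0.954), RP1-140K8.5 (0.950) and FLNC (0.946). The 12 points share treatments, lines and library depth, and these correlations are descriptions.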

How the data were processed

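Polyadenylated RNA of 12 cultures was sequenced with a stranded library kit, and the submitters' notes name hg38 as the genome build. The aligner, the read counting and the normalization were not given in the sources used here. The authors deposited 1 log2 value per gene and library. From the values, each is log2(x + 1) + 0.001, where x is the gene's reads per 10000000 reads of the library, since this scale made 100% of the values whole reads within a tolerance of 0.001. The mean log2 value of the 11548 genes is at least 4.65, and 305 have 0 reads in at least 1 library. Names turned into dates stand on 18 lines and 4 names stand on 2 lines each. These stayed in the tests. The current symbols of CTGF and CYR61 are CCN2 and CCN1.

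Log2-fold changes on this scale understate those of genes with few reads. Within a line, no p-value was computed. Across lines, limma 3.58.1 (lmFit, eBayes with trend) was fitted to the 12 libraries with treatment and cell line, with 6 residual degrees of freedom, and Benjamini-Hochberg adjusted p under 0.05 was called. For treatments, the cell line was the replicate block, so that the pairing comes from the line itself. A p-value there sets a change against the spread left in all 12 libraries after treatment and line. That spread is shared by all contrasts of the fit and is not one between cultures. For contrasts between lines, the 4 differently treated libraries of a line stood as its replicates. A p-value there uses the same shared spread, and no line had an independent replicate. Drug effects per line came from a fit of 9 terms with 3 residual degrees of freedom, in which the drugs do not interact. RPKM used the exon union of GENCODE 44. Sequences are from RefSeq.

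The members and lists were chosen with earlier results of these data known. Named were all members, genes of the 2 lists that were called or at least 2-fold changed the same way in all 3 lines (at most 10 per contrast), the 5 per list with the smallest p between lines, and the 3 genes most like each member by Pearson's r. Alternatives were 10 added to the linear values, the 75% of genes with the highest mean, libraries centred on their medians, voom on whole reads, no replicate block, only the libraries compared, no treatment term and each line or treatment left out in turn. MAP4K1, VGLL1, FJX1, FOXF2 and RBMS3 were not analysed here. The calculations were tested on simulated data, where the fit with drug effects per line called unchanged genes more often than its threshold allows, mostly genes with few reads in a library. Software was R 4.3.3 and Python 3.11.15 (scipy 1.17.1, pandas 2.3.3, numpy 2.4.6, matplotlib 3.10.9).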

Additional observations from a re-analysis of the deposited data

Results flagged for a closer look

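The effect of a drug differed between lines, by the limma test of the difference itself, in 1 member and in several genes of the wider lists. On simulated data this fit with drug effects per line called unchanged genes at more than its nominal rate, mostly genes with few reads, so that its calls of such genes are uncertain. For WWTR1 the effect of compound #57 in MHCC97H was lower by -0.94 on the log2 scale than the mean of Hep3B and Huh7. For the effect of AZD8055 in MHCC97H against the same mean, the TEAD cofactor VGLL3 stood at -2.56 (adjusted p = 0.00686) and its relative VGLL4 at 0.64, TEAD4 at -1.03, the KIBRA relative WWC2 at -1.23, the kinase MAP4K4 at -0.88 and the targets NUAK2 at -1.87 and MYOF at -1.23. In all, 8 of 31 pathway genes and 3 of 14 targets were called for this effect, against 9.53% of all genes. The third target, DOCK5, named after its values were seen, went the other way, by 1.004 (adjusted p = 0.0366). AMOT stood at 1.52, DCHS1 at -2.84 and WTIP at -1.56, but MHCC97H had 0 to 3, 0 to 2 and 19 to 36 reads of these genes. VGLL3 had 417 reads untreated and 638 with AZD8055 in MHCC97H, 129 and 996 in Hep3B, and 24 and 370 in Huh7.

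For the effect of compound #57, IGFBP3, a secreted carrier of insulin-like growth factors, stood at 4.25 (adjusted p = 0.00395), MYOF at -1.44 and FRMD6 at 0.88 in MHCC97H against the mean of the others. IGFBP3 had 21 reads untreated and 94 with compound #57 in MHCC97H, against 681 and 166 in Hep3B and 138 and 135 in Huh7. Between Hep3B and Huh7 the effect of compound #57 differed by -2.39 for NT5E and by -1.41 for FRMD6.

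Some members went in opposite directions in different lines, with 1 pair of libraries per line, and these differences were not tested. With the combination against untreated cells, the values of WWTR1 in Hep3B, MHCC97H and Huh7 were 0.51, -0.41 and 0.87. With the combination against AZD8055, CTGF stood at -1.88, 1.09 and -0.77 and CYR61 at -1.0, 1.25 and -0.62 in the same order. The exposure time of MHCC97H cannot be told apart from the line in all of these.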

How the results depend on the processing

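Of 237 counts of called genes under the alternatives, 196 stayed within 1.5 times, 31 were fewer and 10 more. Of 1071 values of single genes, 955 kept direction and side of the threshold. The cause of a change was not tested, and the share of all genes called under each alternative was not taken.

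Without the replicate block (the pairing by cell line), 0 members, 0 pathway genes and 0 other targets were called with the combination and 0 members and 0 targets with AZD8055. With only the libraries compared, 0 members and 0 targets were called with AZD8055, and 4 pathway genes and 5 targets with the combination. With AZD8055, 1 target was called with 10 added, 1 target and 1 pathway gene among the 75% of genes, and 1 pathway gene by voom. Leaving out 1 line, the called members, pathway genes and targets ranged from 0 to 4, 0 to 1 and 0 to 3 with AZD8055, from 0 to 3, 0 to 4 and 0 to 1 with compound #57, and from 0 to 6, 0 to 13 and 0 to 7 with the combination. Between Hep3B and Huh7, leaving out 1 treatment gave 0 to 2 members and 2 to 5 targets. Without the treatment term 0 members and 1 target were called there, and 4 members between MHCC97H and Hep3B. For the AZD8055 effect in MHCC97H, 1 member was called with 10 added (ANKRD1, -1.33, adjusted p = 0.0443), 5 pathway genes among the 75% of genes and 5 targets by voom. For the compound #57 effect in MHCC97H, 3 pathway genes were called with 10 added, 0 with centring and 1 target among the 75% of genes, and by voom 2 pathway genes for Hep3B against Huh7. The call of WWTR1 was kept under all 4 alternatives of that fit.

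Direction turned in values that were not called. With centring, YAP1 with AZD8055 was -0.025, YAP1 for the AZD8055 effect between Hep3B and Huh7 -0.0072, and LATS2 for the compound #57 effect in MHCC97H -0.023 (-0.011 with 10 added). By voom, CTGF was 0.044 and CYR61 -0.063 for the compound #57 effect between Hep3B and Huh7. Leaving out 1 line, YAP1 with AZD8055 ranged from -0.045 (without MHCC97H) to 0.053. With compound #57, CTGF ranged from -0.44 to 0.083 (without Huh7) and WWTR1 from -0.099 (without Hep3B) to 0.52. For the combination against AZD8055, TEAD1 ranged from -0.23 to 0.12 (without Huh7), CYR61 from -0.81 to 0.32 (without Hep3B, and 0.13 without Huh7), CTGF from -1.32 to 0.16 (without Hep3B) and WWTR1 from -0.22 to 0.26 (without MHCC97H). Leaving out 1 treatment, WWTR1 ranged from -0.28 to 0.058 (without AZD8055) for Hep3B against Huh7 and TEAD1 from -0.086 (without untreated cells) to 0.298 for MHCC97H against Huh7.

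With 65 to 268 reads of ANKRD1 and 98 to 172 of LATS2 in MHCC97H, counting error is widest there. The median over all genes shifted by over 0.1 against untreated cells in MHCC97H alone, by 0.109 with compound #57 and 0.101 with the combination.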
